A study of Mus musculus with 2 samples.

Results

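Of 18193 genes measured, 10 were examined here: the transcription factor gene Gata6 and 9 further genes known from the expression program of large peritoneal macrophages (Tgfb2, Rarb, Prg4, Serpinb2, F5, F10, Selp, Icam2 and Vsig4). They were taken by name, with every probe set (a group of array probes read as 1 signal) annotated to a single one of these genes, which gave 20 of 34945 probe sets with a single gene symbol. The study hybridised 2 arrays of peritoneal macrophages from male C57BL/6 mice. The cells of 1 array had received a control siRNA and those of the other an siRNA to knock down HDAC9, a histone deacetylase of class IIa, and RNA was taken 48 h after transfection. The sources used here do not give the age of the mice, whether cells were pooled, or whether the macrophages were resident or elicited. Since each group had a single array, no spread between samples and no p-value could be computed, and each difference compares 2 arrays.

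The peritoneal cavity holds a large, resident and a small, monocyte-derived type of macrophage. GATA6, a zinc-finger transcription factor, sets the identity of the large type, and retinoic acid made by neighbouring mesothelial and stromal cells maintains its expression. The program includes secreted factors such as TGF-beta 2, coagulation factors, adhesion molecules and the complement receptor VSIG4, and it is known to weaken when the cells leave the cavity. Gata6 is also transcribed in mesothelial and some stromal cells.

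A signal was called above background when it exceeded log2 6.34, the 95th percentile of 80 probe sets that read receptor genes of olfactory and vomeronasal neurons. Lower signals were set to this floor, and the difference HDAC9 siRNA minus control siRNA was then taken as the log2 ratio, so a positive ratio is a higher signal on the HDAC9 siRNA array. The share of all probe sets above background was 51.4% with control siRNA and 53.6% with HDAC9 siRNA. Over 12090 genes above background on at least 1 array, each read by its brightest probe set, the median ratio was 0.027, and 54.1% of genes had a ratio above 0. The ratios of the 2 brightest probe sets of a gene scattered by 0.29 log2 (SD of a single probe set, 5671 genes), which leaves out differences between cultures. The siRNA target Hdac9 read 6.88 with control siRNA by its brighter probe set and was below background with HDAC9 siRNA, at 5.69, which is at least 1.46-fold lower (a bound of -0.54); its other probe set did not reach background on either, at 5.99 and 5.94. The Hdac9 ratio was -0.34 after loess and -1.19 with a floor at the receptors' 75th percentile, and at their 99th percentile Hdac9 did not reach background on either array.

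The labelled cell type had its markers: all 8 macrophage markers, among them Lyz2, Cd68, Csf1r and Adgre1, were above background on both arrays. Transcripts of other cells were present too. All 10 mesothelial markers (summed linear signal 13467 with control and 14831 with HDAC9 siRNA) and all 7 fibroblast markers (39655 and 53452) were above background, among them Upk3b at 12.5 and Dcn at 13.7 on the control array. In these bulk RNA samples a change in the share of a cell type and a change in RNA per cell cannot be told apart. The sample labels do not name large peritoneal macrophages, and genes typical of that type were above background only in part. Adgre1 and Itgam were well above background, but Timd4 and Alox15, also typical of large resident macrophages, were below it on both arrays.

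Gata6 was higher on the HDAC9 siRNA array by each of its 3 probe sets, while the other members were close to 0 or moved in both directions. The 9 member genes above background on both arrays had 5 ratios above 0 and 4 below, with a median of 0.10 and a range of -0.62 to 0.46. None was 2-fold higher or lower, against a background of 1.44% of genes at least 2-fold higher and 0.372% at least 2-fold lower (174 and 45 genes, or 93 and 48 after loess on signal). At 1.5-fold, 1 member was lower (Prg4) and 0 were higher by their brightest probe sets, where the background was 2.79% of genes lower and 7.81% higher. Ratios beyond the 0.29 scatter of a single probe set were seen in 4 of the 9 genes (Gata6, Icam2, Selp and Prg4), against 34.3% of all genes. With 9 genes these counts lie near the background shares and are no result about the group.

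**Figure D1:**
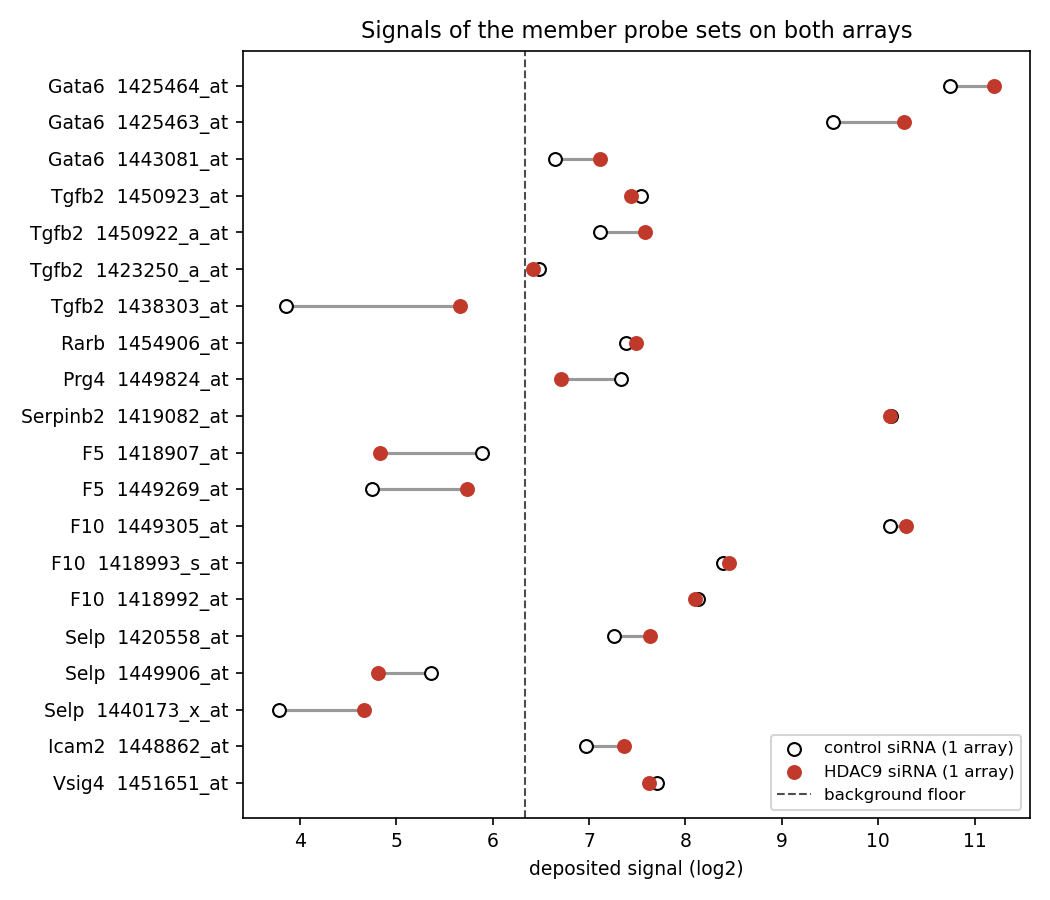
Deposited log2 signal (x axis) of each of the 20 member probe sets (y axis) on the control siRNA array (open circles) and the HDAC9 siRNA array (filled circles), 1 array each, with the background floor of 6.34 as a dashed line. All 3 Gata6 probe sets sit further right on the HDAC9 siRNA array, both F5 probe sets lie left of the floor, and the filled and open circles of Serpinb2 nearly coincide.

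Gata6, the regulator of the group, was read by 3 probe sets, all above background on both arrays. Probe set 1425464_at read 10.74 with control siRNA and 11.20 with HDAC9 siRNA, in the 90.1st and 92.6th percentile of all probe sets on those arrays. Its signal was thus 1.37-fold higher with HDAC9 siRNA (log2 ratio 0.46). Probe set 1425463_at, designed from the same source sequence, read 9.52 and 10.26, which is 1.67-fold higher (0.74). Probe set 1443081_at, from another source sequence, lay near the floor at 6.65 and 7.11 (0.46). The Gata6 probe sets thus shared a direction, and the middle one was the only member probe set at least 1.5-fold higher, against 8.02% of all probe sets above background.

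The Gata6 differences were at the edge of what probe sets of like brightness showed. Among the 500 probe sets nearest to 1425464_at in mean signal, the 5th and 95th percentiles of the ratio were -0.35 and 0.42, and 4.6% had a ratio as high. For 1425463_at the percentiles were -0.37 and 0.52, and 2.6% were as high. For the dim 1443081_at the range was wider, -0.87 to 1.05, and 31.8% were as high. Of 2491 genes with 3 or more probe sets above background, 435 (17.5%) had all ratios above 0, and 21 (0.843%), Gata6 included, had all ratios at or above 0.46, the lowest Gata6 ratio; that limit was set after the Gata6 values were seen. After loess on signal the 3 ratios were 0.48, 0.72 and 0.20, so the dimmest probe set then lay within the scatter. After quantile normalization that probe set was at 0.32. The share of 0.843% was counted with the authors' scaling only and depends on this dim probe set. These percentages describe the spread within 2 arrays and not a spread between cultures.

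**Figure D2:**
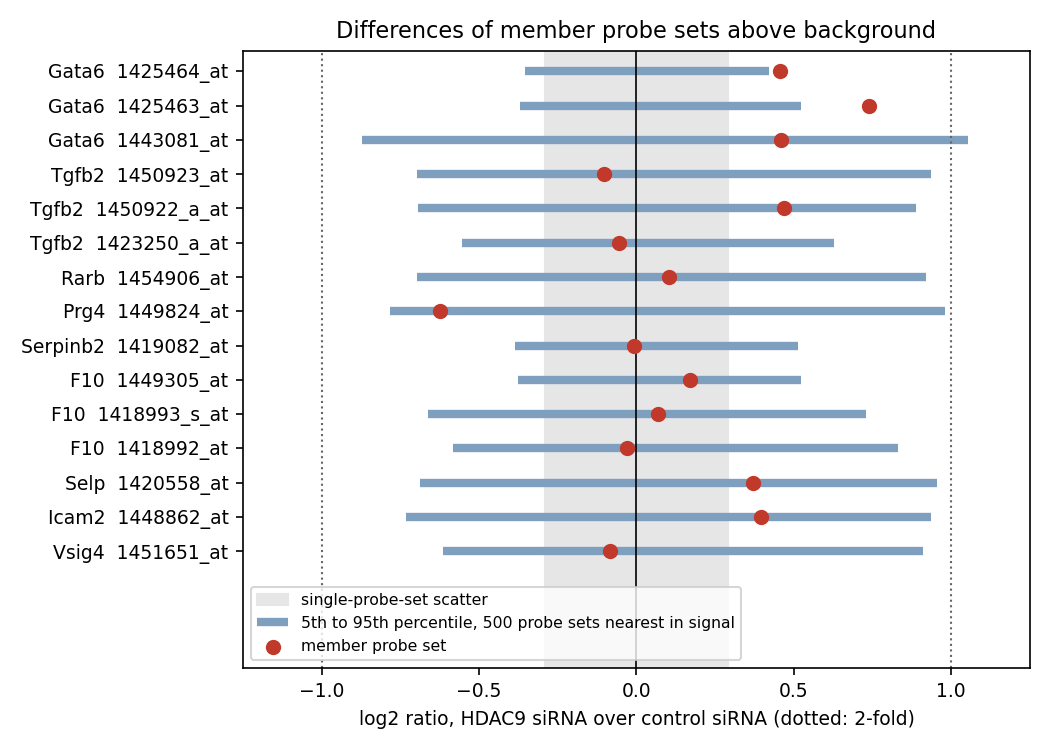
Log2 ratio, HDAC9 over control siRNA (x axis), for the 15 member probe sets above background (points, y axis), beside the 5th to 95th percentile of the 500 probe sets nearest in signal (bars), the single-probe-set scatter of 0.29 in either direction (grey band) and 2-fold (dotted lines). Gata6 probe sets 1425464_at and 1425463_at lie beyond the upper end of their bars; the other 13 points lie within theirs.

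Tgfb2 encodes a secreted TGF-beta ligand and was read by 4 probe sets. The brightest of its 4 probe sets, 1450923_at, read 7.54 with control siRNA and 7.44 with HDAC9 siRNA (-0.10). Probe set 1450922_a_at read 7.11 and 7.59 (0.47), and 1423250_a_at read 6.48 and 6.42 (-0.054), although all 3 were designed from the same source sequence. The fourth, 1438303_at, read 3.86 and 5.66, both below background, and gave no ratio. Tgfb2 therefore had no direction common to its probe sets.

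Among other genes of TGF-beta signalling, ratios above 0 were found in 15 of 20 above background, beside 54.1% of all genes. Of the 20, 0 passed 2-fold, where 1.44% of all genes were at least 2-fold higher. At least 1.5-fold higher were 5, beside 7.81% of all genes. The median of the 20 was 0.23, against 0.027 for all genes, and 0.17 to 0.25 under the alternatives tried. The 5 were the ligand gene Tgfb1, Smad6, which encodes an inhibitory SMAD, the SMAD repressor gene Ski, Smad3, which encodes a signal-transducing SMAD, and Ltbp2 of the latent TGF-beta binding protein family. Tgfb1 read 9.03 with control siRNA and 9.96 with HDAC9 siRNA (0.92), but its dimmer probe set was at -0.19. Smad6 read 7.97 and 8.88 (0.91). Ski read 9.24 and 10.04 (0.80), with its second probe set at 0.43. The largest difference the other way was Acvrl1, a type I receptor gene, at -0.51. Matrix-producing cells also express these genes, and the fibroblast marker genes Col1a1 (9.06 and 10.86) and Col3a1 (11.63 and 13.09) were higher by 1.80 and 1.46 on the same array. The other 5 fibroblast markers lay lower: Lum was at 0.58, Col1a2 at 0.43, Dcn at 0.13, Pdgfra at -0.10 and Pdgfrb at -0.18. Whether that has a part in the TGF-beta values was not tested.

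Rarb encodes retinoic acid receptor beta, a nuclear receptor that binds retinoic acid and is itself a classical retinoic acid target. Its single probe set, 1454906_at, read 7.38 with control siRNA and 7.49 with HDAC9 siRNA (0.10), within the scatter, and turned to -0.016 after loess and -0.0037 after quantile normalization. The start region of Rarb is printed because it holds the kind of element that links this member to the retinoid signal. It runs from 150 bases before to 20 after the RefSeq start, on the minus strand of GRCm38.p6 at chr14:16575457-16575626, and the capitals mark the direct repeat, which begins 53 bases before the start.
Rarb: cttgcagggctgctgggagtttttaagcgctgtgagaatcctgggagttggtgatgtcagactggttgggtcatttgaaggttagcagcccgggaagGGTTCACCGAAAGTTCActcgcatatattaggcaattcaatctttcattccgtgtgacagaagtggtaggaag
The repeat was found by searching both strands for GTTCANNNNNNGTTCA, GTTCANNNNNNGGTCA, GGTCANNNNNNGTTCA and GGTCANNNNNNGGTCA in windows from 250 bases before to 50 after each RefSeq start, and the capitals include the base before the match. Such a match occurred in 73 of 27025 genes (0.270%) with a start window, and among members in 1 of the 7 that had one. A match describes letters and not binding.

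The other genes of the retinoid pathway gave no common direction. Of 11 above background, 7 were above 0 and 4 below, beside 54.1% of all genes above 0. Past 2-fold were 0, beside 1.44% of all genes higher and 0.372% lower. The median was 0.15, against 0.027 for all genes, or 0.39 with a floor at the receptors' 75th percentile. Rara, which encodes retinoic acid receptor alpha, was below background on the control array (5.99) and at 7.34 on the HDAC9 siRNA array. Its ratio was at least 0.997, a bound set by the floor that does not show whether Rara passed 2-fold. It was 1.35, past 2-fold, with a floor at the receptors' 75th percentile, and 0.38 after loess. Aldh1a2, which encodes a retinoic acid-producing enzyme, read 9.30 and 9.78 (0.48), and the receptor gene Rarg read 8.54 and 8.95 (0.41). Rdh10 and Dhrs3, which encode enzymes interconverting retinol and retinal, were at -0.32 and -0.26.

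Gata6 shares its DNA motif with 5 other GATA factors, and their genes and cofactors were more spread out than the members. Of 9 GATA family and partner genes above background, 4 were at least 1.5-fold higher, beside 7.81% of all genes. Past 2-fold were 0, beside 1.44% of all genes higher and 0.372% lower. The 5 not among those 4 had ratios below 0, beside 54.1% of all genes above 0, so that the median was -0.046. That median turned to 0.33 when each gene was read by the median of its probe sets and to 0.82 over the 5 genes left once _s_at, _x_at and _a_at probe sets were dropped. Zfpm2, which encodes the GATA cofactor FOG2, read 9.23 with control siRNA and 10.22 with HDAC9 siRNA (0.98), and its dimmer probe set was at 0.76. Zfpm1, which encodes FOG1, read 7.83 and 8.77 (0.94), with a bound of 0.27 from its dimmer probe set. Gata4 lay at the floor on the control array, at 6.34 and 7.16 (0.82, or 0.23 after loess), and Gata2 read 7.57 and 8.23 (0.65). Gata1 and Gata3 were below background on both arrays. Among partners, Lmo2, which encodes a LIM adaptor of GATA complexes, was at -0.47.

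Gata4, Zfpm2 and Gata6 are all known in mesothelial or stromal cells as well. Some markers of those cells differed between the 2 arrays, in both directions, and others stayed within the scatter. Of the 7 fibroblast markers, 5 had a ratio above 0, beside 54.1% of all genes. A ratio of 2-fold or more was reached by Col1a1 and Col3a1, beside 1.44% of all genes. The median of the 7 was 0.43, against 0.027 for all genes. Lum was at 0.58 and Col1a2 at 0.43, while Dcn (0.13), Pdgfra (-0.10) and Pdgfrb (-0.18) lay within the scatter. Of the 10 mesothelial markers, 4 had a ratio above 0 and 6 below, with a median of -0.094. Wt1, which encodes a transcription factor of mesothelium, was at 0.44, Muc16 at 0.50 and Lrrn4 at 0.56. Msln was at -1.11, Krt7 at -0.99 and Krt18 at -0.44. Upk3b (0.24), Upk1b (-0.020), Krt8 (-0.17) and Krt19 (-0.18) lay within the scatter. Msln no longer passed 2-fold after loess (-0.76) or with a floor at the receptors' 99th percentile (-0.57). The part of these cells in the Gata6 difference was not tested.

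The genes closest to Gata6 over both arrays, by the distance between the 2 log2 signals of the brightest probe sets, were Rgl2 (10.77 and 11.19), Rnf114 (10.72 and 11.21) and Wdfy3 (10.78 and 11.21). With 2 arrays this says only that their signals were alike.

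**Figure D3:**
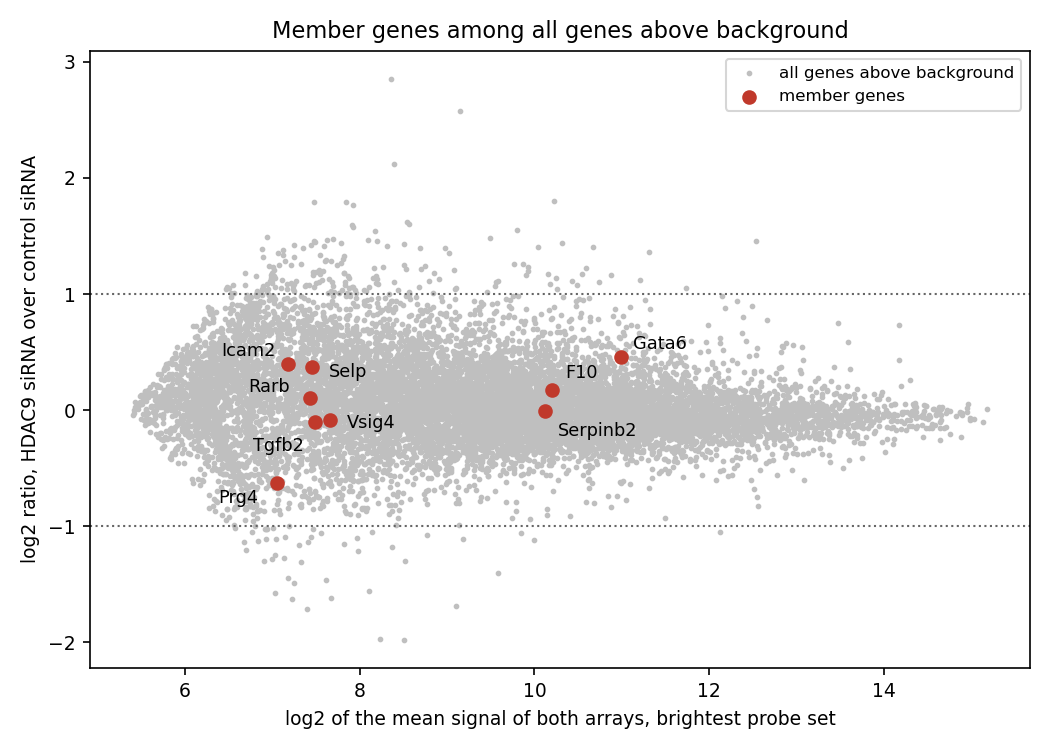
Log2 ratio, HDAC9 over control siRNA (y axis), against the log2 of the mean signal of both arrays (x axis) for the 12090 genes above background (grey) and the 9 member genes among them (red), each by its brightest probe set, with dotted lines at 2-fold. Prg4 is the lowest member, at -0.62, among dim genes whose spread is wide, and Gata6 lies at 0.46 near the upper edge of the narrower cloud at its signal.

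Prg4, which encodes the secreted lubricating proteoglycan 4 (lubricin), was the member that was lowest with HDAC9 siRNA. Its single probe set, 1449824_at, read 7.33 with control siRNA and 6.70 with HDAC9 siRNA, 1.54-fold lower (-0.62). It was the only member probe set at least 1.5-fold lower, against 3.56% of probe sets above background, and 9.0% of the 500 probe sets nearest in signal had a ratio as low. Both signals were near the floor. With a floor at the receptors' 99th percentile its value was a bound of -0.40.

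Serpinb2 encodes plasminogen activator inhibitor 2, a serine protease inhibitor abundant in macrophages, and its signal was nearly equal on both arrays. Probe set 1419082_at read 10.13 with control siRNA and 10.12 with HDAC9 siRNA (-0.0078), in the 85.9th and 85.7th percentile of the arrays. Serpinb2 was 1 of 2 members with a GATA motif in their start windows, the other being Tgfb2. The motif was searched on both strands as AGATAA, as AGATAG, as TGATAA and as TGATAG. At least 1 window of 8930 of the 27025 genes (33.0%) held it, beside 2 of 7 members. Both matches are shown with the motif in capitals, and a match describes letters and not binding. Whether GATA6 acts on either gene was not tested.
Serpinb2: cagccgctcagaAGATAAcgaggtaataca
Tgfb2: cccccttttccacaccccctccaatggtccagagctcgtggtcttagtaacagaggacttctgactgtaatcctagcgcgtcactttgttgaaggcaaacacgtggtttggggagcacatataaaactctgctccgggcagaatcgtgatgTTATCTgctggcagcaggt
The Serpinb2 stretch lies on the plus strand at chr1:107511457-107511486 of GRCm38.p6, with the motif 41 bases before the second of its 2 RefSeq starts. The Tgfb2 stretch runs from 150 bases before to 20 after its start on the minus strand at chr1:186705970-186706139, and its motif, on the opposite strand to the gene, begins at base 2 of the transcript. Neither motif class was found in the windows of F5, F10, Selp or Vsig4, which says only that these letters are not in those windows.

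F10 encodes coagulation factor X, the protease that forms thrombin from prothrombin, and its 3 probe sets stayed within the scatter. They read 10.12 with control siRNA and 10.29 with HDAC9 siRNA (1449305_at, 0.17), 8.39 and 8.46 (1418993_s_at, 0.070) and 8.13 and 8.10 (1418992_at, -0.029). The middle value turned to -0.014 after quantile normalization. F5 encodes factor V, the cofactor of activated factor X. Neither of its probe sets reached background, with 5.89 and 4.84 (1418907_at) and 4.75 and 5.74 (1449269_at), in opposite order, so F5 gave no ratio.

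Of 20 other coagulation and fibrinolysis genes above background, 12 were above 0 and 8 below, beside 54.1% of all genes above 0. Past 2-fold were 0, beside 1.44% of all genes higher and 0.372% lower. The median was 0.059, against 0.027 for all genes. F13a1, the gene of the clot-crosslinking factor XIII A chain and a marker of monocyte-derived macrophages, was lowest, at 10.34 and 9.40 (-0.94). Thbd, which encodes the anticoagulant receptor thrombomodulin, read 10.74 and 11.30 (0.57). F7, the gene of factor VII and the chromosomal neighbour of F10, read 7.85 and 8.32 (0.47).

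Selp and Icam2 encode adhesion molecules, P-selectin, which binds leukocyte ligands, and ICAM-2, a ligand of beta-2 integrins used as a surface marker of large peritoneal macrophages. Selp read 7.26 with control siRNA and 7.63 with HDAC9 siRNA by probe set 1420558_at, 1.29-fold higher (0.37). Its other 2 probe sets did not reach background on either array, with 5.36 and 4.81 (1449906_at) and 3.78 and 4.67 (1440173_x_at). Icam2 read 6.97 and 7.37 by its single probe set, 1.32-fold higher (0.40). Ratios as high were found in 30.0% and 29.8% of the 500 probe sets nearest in signal. After loess both fell within the scatter, at 0.25.

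Selp lies next to F5 on chromosome 1, which also carries Serpinb2, Prg4 and Tgfb2, so 5 of the 10 members share that chromosome. The neighbours did not share a level above background, since F5 was below it. Selp and Icam2 are also expressed in endothelial cells, and Selp in platelets. Of 9 endothelial markers 2 were above background, Kdr (0.19) and Eng (0.16). The summed linear signal of all 9, those below background included, was 662 with control siRNA and 766 with HDAC9 siRNA. The defining markers Cdh5, Pecam1, Tie1 and Cldn5 were below background on both arrays. Of 6 platelet markers measured, 5 were above background, with a median ratio of 0.18 that turned to -0.0090 after loess. The summed signal of all 6, Ppbp below background included, was 1717 and 1527. Pf4 read 10.17 and 9.79 (-0.38). Gp5 (6.84 and 7.10, 0.26) and Gp1bb (6.62 and 6.86, 0.24) lay near the floor, and the other Gp1bb probe set was below background on both arrays. Of 11 other selectin, ICAM and ligand genes above background, 4 were above 0 and 7 below, beside 54.1% of all genes above 0. Past 2-fold were 0, beside 1.44% of all genes higher and 0.372% lower. The largest differences were Icam1 (0.31), Itgb2 (-0.29) and Ezr (0.25).

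Vsig4 encodes a complement receptor of the immunoglobulin superfamily that also restrains T cell activation. Probe set 1451651_at read 7.70 with control siRNA and 7.62 with HDAC9 siRNA (-0.083), within the scatter. Of 11 related B7 family and complement genes above background, 6 were above 0 and 5 below, beside 54.1% of all genes above 0. Past 2-fold were 0, beside 1.44% of all genes higher and 0.372% lower. The median was 0.015, against 0.027 for all genes. C5ar1, the gene of the C5a receptor, was lowest at 10.94 and 10.31 (-0.63), with its second probe set at -0.12. Cd274, which encodes PD-L1, read 10.42 and 10.71 (0.29). Pdcd1lg2, which encodes PD-L2, was below background on the control array and higher by a bound of 0.58.

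Further genes of large peritoneal macrophages were as mixed as the members. Of 21 measured, 15 were above background, 8 with a ratio above 0 and 7 below, beside 54.1% of all genes above 0. Past 2-fold were 0, beside 1.44% of all genes higher and 0.372% lower. The median was 0.010, against 0.027 for all genes. The 6 below background on both arrays were Timd4, Alox15, Aspa, Garnl3, Apoc1 and Marco. The largest differences were Fn1, the gene of fibronectin, which read 13.76 and 14.49 (0.73, with a dimmer probe set at 1.05), the B cell chemokine gene Cxcl13, which read 8.28 and 7.47 (-0.82, with its other probe set at -0.53), and the caveolin gene Cav1, which read 10.82 and 11.49 (0.67). Fn1 and Cav1 are also abundant in fibroblasts. The macrophage markers had a median of -0.0055, with 4 of 8 above 0 and 4 below, beside 54.1% of all genes above 0. Fcgr1, which encodes an Fc receptor for IgG, was at 0.43 (0.19 as the median over its probe sets), Mertk, the gene of a receptor for apoptotic cells, at 0.37, and Cd14, the gene of a lipopolysaccharide co-receptor, at -0.46, while Adgre1, the gene of F4/80, was at 0.010.

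Markers of the small, monocyte-derived macrophages mostly had ratios slightly below 0. Of 9 above background, 8 had a ratio below 0 and 1, Retnla, above 0 as a bound (0.26), where 54.1% of all genes were above 0. The median was -0.19, and -0.26 to -0.10 under the 8 alternatives, which reprocess the same 2 arrays. The value of -0.10 was over the 6 genes left once _s_at, _x_at and _a_at probe sets were dropped. F13a1 (-0.94) and Clec10a, the gene of a lectin receptor, at 7.38 and 6.66 (-0.71), were the only ones at least 1.5-fold lower, 2 of 9 beside 2.79% of all genes. Clec10a was a bound of -0.45, short of 1.5-fold, with a floor at the receptors' 99th percentile. The MHC class II genes H2-Aa, H2-Ab1 and H2-Eb1 were at -0.17, -0.22 and -0.19. Lyz1 was at -0.23, Folr2 at -0.18 and Mrc1 at -0.023, and like the MHC class II genes they lay within the scatter. Ccr2, Irf4, Cd226 and Mgl2 were below background on both arrays.

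**Figure D4:**
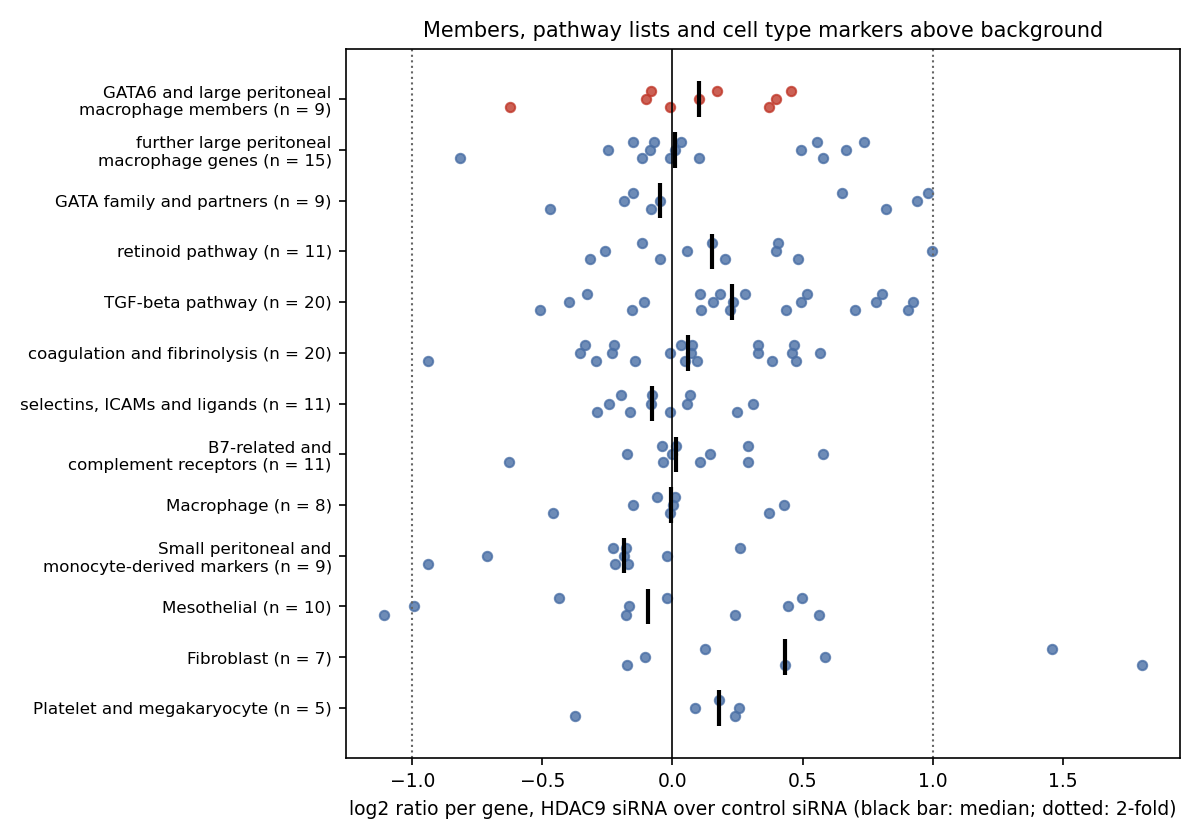
Log2 ratio per gene, HDAC9 over control siRNA (x axis), for the members (red) and for each pathway or marker list with at least 5 genes above background (blue, y axis), with black bars at the medians, dotted lines at 2-fold, and ratios with 1 signal below background plotted at their bound. The members spread on both sides of 0 around a median of 0.10, and of the lists shown the fibroblast markers have the highest median, 0.43.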

How the data were processed

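The authors deposited a log2 signal for each probe set and array. The submitters' processing notes name MAS5, which condenses the probes of a set; the sources used here do not give its version, settings or detection calls. The array holds 45037 probe sets in this table, with a 2% trimmed mean linear signal of 497 on both arrays, so the authors' scaling was kept. Symbols came from a platform annotation of 2016 and were checked by gene identifier against RefSeq GRCm38.p6 (34741 of 34945 matched, 0 changed). Left out were 932 probe sets with several symbols and 9160 with none. A gene was read by the probe set with the highest mean linear signal. Signals of different probe sets depend on probe affinity, so a level does not rank genes by abundance. The genes closest to Gata6 and the summed signals of marker lists combine levels of different probe sets and carry this limit. Start windows of 7 members (not of Gata6, Prg4 and Icam2) came from RefSeq. Python 3.11.15, pandas 2.3.3 and statsmodels 0.14.6 were used, and the steps were tested on simulated data.

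Named were all members, and of each list the genes past 2-fold and the 3 next largest ratios; other genes named were chosen after their values were seen. The members, lists and rules were chosen with earlier results of these data known. The alternatives were median centring, quantile normalization, loess on signal (span 0.3), floors at the receptors' 75th or 99th percentile, a pseudocount of 1 in place of a floor, each gene as the median of its probe sets, dropping _s_at, _x_at and _a_at probe sets, and thresholds of 1.5-fold and 3-fold. Other marker lists had few genes above background: B cell (Pax5, a bound of 0.40), T cell (Cd8a, a bound of -0.79, and Thy1, -0.72), neutrophil (Csf3r, 0.45, and S100a8, -0.22), eosinophil (Siglecf, -1.08) and mast cell (0 of 5).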

Additional observations from a re-analysis of the deposited data

How the results depend on the processing

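All 72 alternative values of the 9 member genes stayed within the single-probe-set scatter of their reported ratio. This is a loose limit, since the alternatives reprocess the same 2 arrays and 5 of the 9 ratios were themselves within that scatter. The change of sign of Rarb, from 0.10 to -0.016 after loess, counts as within it. By the brightest probe set Gata6 ranged from 0.43 to 0.48, Icam2 from 0.25 to 0.40, Selp from 0.25 to 0.37 and Prg4 from -0.75 to -0.40. The median of the members turned to -0.0037 after quantile normalization and -0.016 after loess. No member passed 2-fold except F5, below background in the reported values, at -1.03 with no floor, which made 1 member lower; at 1.5-fold 1 member was lower, and at 3-fold 0. Over all genes, 944 were higher and 337 lower at 1.5-fold and 10 and 6 at 3-fold. With the lower floor the counts were 658 and 259, with none 2223 and 1481; loess gave 93 higher and the higher floor 21 lower. Fewer or more dim genes are tested as the floor moves; the cause of the loess shift was not tested. For lists with at least 3 genes above background, 88 of 96 alternative medians kept within the error expected from the scatter; the other 8 were 4 of the GATA family, 2 of the retinoid pathway (0.39 with the lower floor and with none), the fibroblast markers (0.58) and the platelet markers. Tgfb1 was at 0.37 and Zfpm1 at 0.61 by the median over probe sets. No paired analysis was possible because each group has 1 array and the labels give no replicate numbers. The number of arrays limits the precision throughout.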
